A study of Homo sapiens with 6 samples.

Results

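The genes described here are NNMT, the enzyme that methylates nicotinamide, and 9 others: NAMPT, NAPRT, NMNAT1, NMNAT2, NADK, NADSYN1, AOX1, QPRT and SIRT1. Of the 9, AOX1 oxidises the product of NNMT, and the rest make, recycle or use nicotinamide adenine dinucleotide (NAD). The genes were found by symbol in a table of 62700 genes, and all 10 were present. The cells were PC3, an established human prostate cancer line, grown in serum-containing medium and sequenced as total RNA after removal of ribosomal RNA. In 3 libraries the cells, labelled wild type, carried a control shRNA (a hairpin-shaped RNA that is processed to silence a matching transcript). In the other 3 they carried an shRNA labelled TTC3 knockdown, directed at the ubiquitin ligase gene TTC3. The labels do not say whether the cells were pools or single clones, how long the shRNA had been present, or that the libraries came from separate cultures. The p-values then reflect only how these libraries vary, and that variation may be technical. The set was chosen by a known function and by the fall of NNMT in this same comparison, so the changes of all 10 genes are descriptions and no p-value is given for them.

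NAD carries electrons in metabolism and is also consumed as a substrate by sirtuins, poly(ADP-ribose) polymerases (PARPs) and NAD glycohydrolases, which release nicotinamide. Most human cells rebuild NAD from that nicotinamide through NAMPT and then an NMNAT enzyme (the salvage route). NAPRT starts a separate route from nicotinic acid, QPRT links the route from tryptophan to it, and both continue through an NMNAT enzyme and then NADSYN1. NNMT removes nicotinamide from salvage by methylating it with S-adenosylmethionine, and AOX1 oxidises the methylated product. NNMT is known as a gene of liver, of cancer-associated fibroblasts and of several carcinomas.

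Values are CPM, the estimated counts scaled to a common library size and composition. Fold changes are TTC3 shRNA over control shRNA from one edgeR quasi-likelihood fit over 24325 tested genes, and a gene passed the test at a Benjamini-Hochberg adjusted p below 0.05. Libraries held 143246356 to 155526861 counts. TTC3 was at 695, 684 and 680 CPM in control libraries and 228, 183 and 178 CPM in TTC3 shRNA libraries, 28.6% of control. TTC3 shRNA replicate 1 stood apart from replicates 2 and 3 of its group. Against theirs, the median chi-square of its counts over genes, a squared deviation, was 27.8 and 35.5 times that of sampling noise. The ratio was 7.42 between replicates 2 and 3 and 3.85 to 4.95 among the controls. For each doubling of transcript length, the log2 difference from control shifted by -0.03 in replicate 1 but by -0.16 and -0.20 in replicates 2 and 3. The markers used for the line were all detected: the epithelial genes KRT8, KRT18, KRT19, EPCAM and CDH1, and the mesenchymal gene VIM. CDH1, low at 1.97 CPM in control libraries, fell to 30.4% of control, while VIM rose to 132%. The other epithelial genes did not fall with CDH1. KRT18 rose to 145% and EPCAM to 124% of control, while KRT19 at 140% and KRT8 at 101% did not pass. KLK3 and KLK2, secreted proteases of the prostate luminal cell, had no counts in any library.

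NNMT had the largest change of the 10 genes, and NAMPT, NMNAT2 and SIRT1 fell by less. NNMT fell to 3.81% of its control level, NAMPT to 56.6%, SIRT1 to 63.8% and NMNAT2 to 68.4%. NADK rose to 147% and AOX1 to 137% of control. NADSYN1 was at 89.9%, NAPRT at 109% and NMNAT1 at 130% of control and did not pass the test, and QPRT had too few counts to be tested. Thus 4 of the 9 tested genes passed as lower, where 17.8% of all tested genes did, and 2 passed as higher, where 15.7% did. In both directions together that is 6 of 9 against 33.6% of all tested genes. Of the 14901 tested protein-coding genes, 21.3% passed as lower and 20.9% as higher. The groups did not overlap for 8 of the 9, against 50.3% of all tested genes. The median log2 fold change of the 9 was -0.15, and that of all tested genes was -0.02. Since the comparison itself was used to choose the set, nothing is read from these counts. Without TTC3 shRNA replicate 1, 8 of the 9 passed, the added genes being NAPRT and NMNAT1. In that fit 13739 of all 25416 tested genes passed, against 8165 of 24325 in the main fit.

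**Figure D1:**
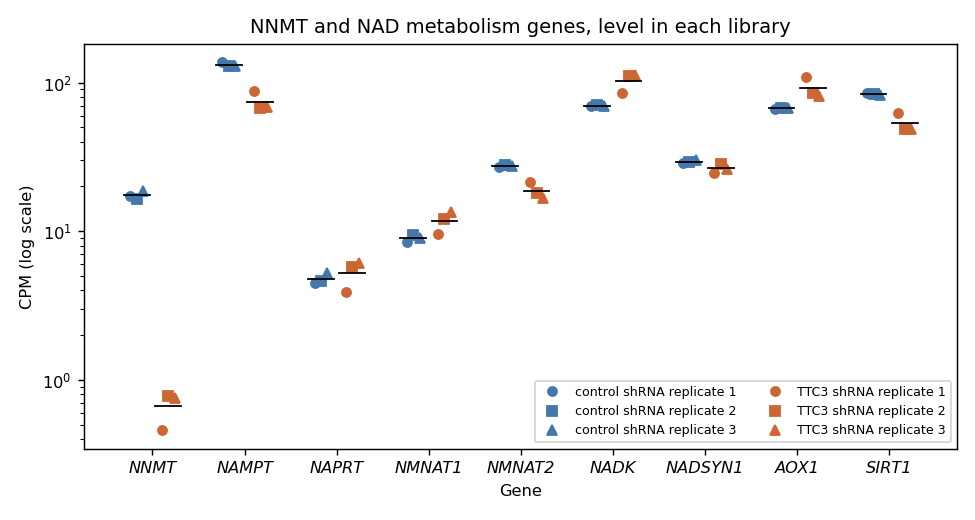
CPM (log scale) of the 9 tested genes in each library, with control shRNA in blue, TTC3 shRNA in orange, one symbol per replicate number and a line at each group mean. NNMT is separated by more than an order of magnitude between the groups, while NAPRT is the only gene whose groups overlap.

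NNMT (ENSG00000166741.8, hg38 chromosome 11, 114257787 to 114313285, plus strand) held 2767, 2651 and 2799 estimated counts in the control libraries and 69, 107 and 109 in the TTC3 shRNA libraries. In CPM these were 17.3, 16.4 and 18.7 against 0.458, 0.781 and 0.759. Every TTC3 shRNA library was far below every control library, and replicate 1 was the lowest. The mean went from 17.5 ± 1.17 to 0.666 ± 0.180 CPM (SD, n = 3 each), which is 26.2-fold lower. The log2 fold change was -4.72 ± 0.22 (SE), rank 280 of the 24325 tested genes counted from the most lowered. It ranged from -4.88 to -4.49 over the 16 alternative settings. In bulk RNA, fewer cells expressing a gene and less of its RNA per cell cannot be told apart. The transcript NNMT-201 held 97.2% of NNMT counts in control libraries (mean) and 100% in each TTC3 shRNA library. The longer NNMT-203, which starts upstream, held 2.81% in control libraries and no counts in TTC3 shRNA libraries.

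Since NNMT is also a gene of fibroblasts and liver, markers of those cells were summed. The 8 fibroblast markers were at 34.9 to 37.5 CPM in sum in control libraries and at 99.4 to 153 CPM in TTC3 shRNA libraries. The sum came mostly from COL1A1 and PDGFRA, which rose to 398% and 321% of control. LUM fell to 48.9% of control, so the members of the list did not move one way, and DCN, FAP and THY1 had at most 18 counts in any library. All 8 had a count in control libraries and 7 in TTC3 shRNA libraries, FAP being at 0 there. The 6 hepatocyte markers summed to 4.90 to 5.35 CPM in control and 7.34 to 8.68 CPM in TTC3 shRNA libraries, and that difference lay in SERPINA1, which rose to 185% of control. Against the sum but with NNMT, APOA1 fell to 9.46% of control and HP to 2.95%, and CYP3A4 fell from 134 counts in sum to 0, at least 40.9-fold at a floor of 3 counts over the group, while ALB was at 48.9% and did not pass. All 6 had a count in control libraries and 4 in TTC3 shRNA libraries, TTR and CYP3A4 being at 0 there. The 6 leukocyte markers summed to 13.7 to 18.3 and 16.7 to 38.8 CPM, mostly from CD68, with 5 of the 6 detected in each group and CD3E at 0 throughout. CD68 rose to 203% of control with groups that overlapped, while LYZ fell to 5.59% and CD14 to 39.5% of control. PTPRC held 69 counts in sum in control libraries and 3 in TTC3 shRNA libraries and was not tested. CD79A was at 83.0% and did not pass. The part of these markers in the NNMT values was not tested.

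The genes around NNMT on chromosome 11 did not share one pattern. Of 13 protein-coding genes with an end within 500 kb, 9 had enough counts to be tested. On the centromeric side ZW10, a kinetochore protein, was at 40.1 ± 0.510 and 39.3 ± 8.50 CPM, and the deubiquitinase USP28 at 37.8 ± 2.02 and 37.4 ± 7.16 CPM. Both groups overlapped for these genes, and neither passed in the main fit. Without TTC3 shRNA replicate 1 both passed as lower, ZW10 at -0.20 and USP28 at -0.16 on the log2 scale. On the telomeric side the oligoribonuclease REXO2 rose from 42.5 ± 1.66 to 56.7 ± 5.18 CPM (log2 fold change 0.42 ± 0.08, SE). The RNA-binding protein RBM7 was at 34.5 ± 0.829 and 25.7 ± 5.64 CPM, with groups that did not overlap. It did not pass, but it passed as lower in 6 of 16 alternatives, among them library totals alone, DESeq2 and the fit without TTC3 shRNA replicate 1. C11orf71 was at 5.22 ± 0.358 and 5.62 ± 1.40 CPM, with groups that overlapped, and did not pass. C11orf71 was marginally lower with library totals alone (log2 fold change -0.01).

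Farther out, the low-level genes of the NXPE family were lower in TTC3 shRNA cells. NXPE2 held 79, 76 and 62 counts in control libraries against 0, 6 and 0 in TTC3 shRNA libraries, and fell with an edgeR adjusted p of 0.00547. NXPE1 held 54 control counts in sum and NXPE4 held 47, and both had none in TTC3 shRNA cells. Against a floor of 3 counts over the group they were at least 16.5-fold and 14.3-fold lower, bounds that cover counting error only. The gene ENSG00000255663 fell from 1.53 ± 0.443 to 0.304 ± 0.211 CPM (edgeR adjusted p = 0.0111), and it overlaps RBM7 and REXO2, so its counts are uncertain. REXO2 did not pass without control replicate 3, and its log2 fold change was 0.19 with the length trend removed.

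**Figure D2:**
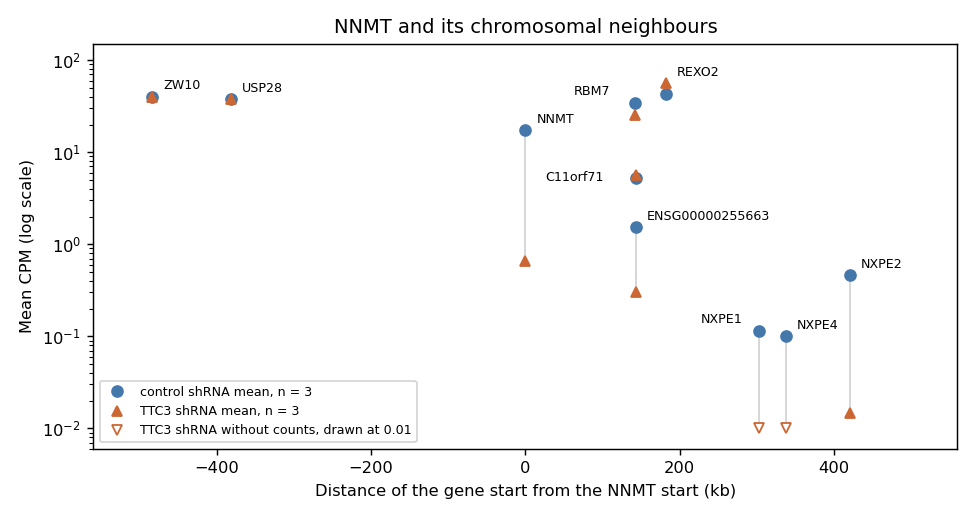
Mean CPM (log scale) of NNMT and its tested protein-coding neighbours against the distance of each gene start from the NNMT start in kb, for control shRNA (blue circles) and TTC3 shRNA (orange triangles), n = 3 each. Open triangles at 0.01 mark genes without counts in TTC3 shRNA libraries. ZW10, USP28 and C11orf71 lie close together in both groups, whereas NNMT and the 3 NXPE genes are far lower in TTC3 shRNA libraries.

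By the distance between log2 CPM profiles centred on each gene's mean, the 5 genes most like NNMT among 14896 over the 6 libraries were NPC1L1, CAMK2N1, BST2, FUT3 and TFF2. The likeness is to the group difference and to the lower value in TTC3 shRNA replicate 1, with distances of 0.317 to 0.498 log2 units. NPC1L1, the intestinal cholesterol transporter, went from 4.86 ± 0.143 to 0.166 ± 0.05 CPM. CAMK2N1, an inhibitor of calmodulin-dependent kinase II, went from 58.2 ± 1.83 to 2.53 ± 0.557 CPM. BST2, the antiviral tether of virus particles, went from 14.3 ± 0.483 to 0.603 ± 0.165 CPM. The fucosyltransferase FUT3 went to 2.78% and the trefoil peptide TFF2 to 4.41% of control. In all 5, as in NNMT, TTC3 shRNA replicate 1 was the lowest of the 6 libraries. The 5 were chosen by likeness to NNMT over these same libraries, so that shared order follows from the choice. In FUT3 it rests on 6, 11 and 7 counts in TTC3 shRNA replicates 1, 2 and 3.

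NAMPT (ENSG00000105835.13, chromosome 7, 106248285 to 106286326, minus strand), the rate-limiting enzyme of nicotinamide salvage, was at 137, 129 and 129 CPM in control libraries and 88.0, 67.1 and 68.0 CPM in TTC3 shRNA libraries. The groups did not overlap, and replicate 1 was the least lowered. The mean went from 131 ± 4.54 to 74.4 ± 11.8 CPM, a log2 fold change of -0.82 ± 0.11 (SE). The processed copy NAMPTP1 on chromosome 10 was at 11.8 ± 0.574 and 7.10 ± 1.01 CPM, 60.2% of control, so reads divided between the copies make both levels uncertain.

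NMNAT1 and NMNAT2 both join the mononucleotide to ATP, NMNAT1 in the nucleus and NMNAT2 at the Golgi and in the cytosol, where it is best known from neurons. NMNAT2 (ENSG00000157064.11, chromosome 1, 183248237 to 183418602, minus strand) was at 27.0, 27.8 and 27.5 CPM in control libraries and 21.6, 18.1 and 16.7 CPM in TTC3 shRNA libraries. All TTC3 shRNA libraries lay below all controls, and the log2 fold change was -0.55 ± 0.10 (SE). NMNAT1 (ENSG00000173614.14, chromosome 1, 9943428 to 9985501, plus strand) was at 8.46, 9.45 and 8.98 CPM in control libraries and 9.53, 12 and 13.4 CPM in TTC3 shRNA libraries. Its lowest TTC3 shRNA library was just above its highest control, the log2 fold change was 0.38 ± 0.14, and it did not pass. NMNAT3, the third enzyme of this step, was named after its values were seen and rose from 3.99 ± 0.376 to 5.26 ± 0.423 CPM (edgeR adjusted p = 0.0446). That value is close to the threshold, and NMNAT3 was not followed through the alternatives.

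Apart from the NMNAT step, the nicotinic acid and tryptophan routes were covered by 3 genes. NAPRT (ENSG00000147813.16) was at 4.49, 4.63 and 5.27 CPM in control libraries and 3.89, 5.72 and 6.09 CPM in TTC3 shRNA libraries. Replicate 1 was below and replicates 2 and 3 above all controls, and the log2 fold change was 0.13 ± 0.18, or -0.01 with library totals alone. NADSYN1 (ENSG00000172890.13, chromosome 11, 71453109 to 71524107, plus strand), the glutamine-dependent NAD synthetase, was at 28.8, 29.1 and 30.3 CPM in control libraries and 24.8, 28.2 and 26.3 CPM in TTC3 shRNA libraries. The groups did not overlap, but the log2 fold change of -0.15 ± 0.07 did not pass, and it passed as lower with library totals alone (-0.28). QPRT (ENSG00000103485.19) held 0, 0 and 3 counts in control and 4, 0 and 3 in TTC3 shRNA libraries. It was at or near the detection floor of 3 counts in each library, and no fold is given.

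NADK phosphorylates NAD to NADP. NADK (ENSG00000008130.15, chromosome 1, 1751232 to 1780457, minus strand) was at 69.2, 70.5 and 70.0 CPM in control libraries and 84.4, 111 and 112 CPM in TTC3 shRNA libraries. The control libraries differed little, and every TTC3 shRNA library was above them, replicate 1 the least. The log2 fold change was 0.55 ± 0.11 (SE). Its mitochondrial counterpart NADK2, named after its values were seen, was at 28.5 and 24.9 CPM on average and did not pass.

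AOX1 (ENSG00000138356.14, chromosome 2, 200585868 to 200677064, plus strand), the molybdenum-dependent aldehyde oxidase, was at 66.7, 67.7 and 67.2 CPM in control libraries and 109, 85.6 and 81.5 CPM in TTC3 shRNA libraries. Unlike NADK, its highest value was in replicate 1. The mean went from 67.2 ± 0.490 to 92.0 ± 14.7 CPM and the log2 fold change was 0.45 ± 0.11 (SE). AOX1 did not pass with library totals alone or without any 1 of the 3 control replicates. Of the 986 tested protein-coding genes of chromosome 2, 42.3% passed as higher and 12.1% as lower, against 20.9% and 21.3% of 14901 on all chromosomes, with a median log2 fold change of 0.27 against 0.00. On chromosome 11, which carries NNMT, its neighbours and NADSYN1, 30.5% passed as higher and 15.9% as lower, with a median of 0.12. The part of these shifts in the values of single genes was not tested.

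SIRT1 (ENSG00000096717.12, chromosome 10, 67884669 to 67918390, plus strand), a nuclear deacetylase that consumes NAD, was at 84.5, 84.3 and 82.4 CPM in control libraries and 62.5, 49.0 and 48.8 CPM in TTC3 shRNA libraries. The groups did not overlap, and the log2 fold change was -0.65 ± 0.10 (SE). With each library's trend in transcript length removed it was -0.59, NMNAT2 was at -0.44, NADK at 0.57, AOX1 at 0.55 and NNMT at -4.88. NAMPT could not be placed in that fit, because the transcripts with a known length held only 8.75% to 13.6% of its counts.

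**Figure D3:**
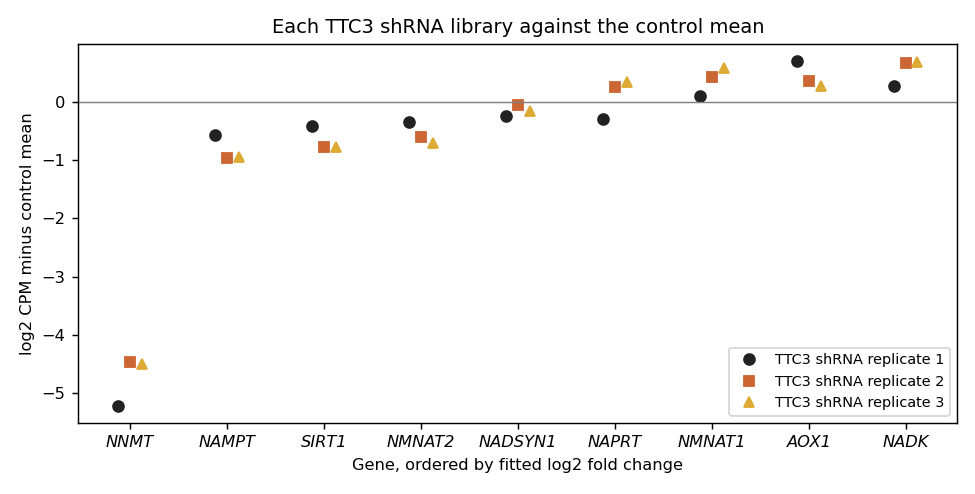
Log2 CPM of each TTC3 shRNA library minus the control mean, for the 9 tested genes ordered by fitted log2 fold change, with one symbol per replicate. All 3 replicates lie below 0 for NNMT, NAMPT, SIRT1, NMNAT2 and NADSYN1 and above 0 for NMNAT1, AOX1 and NADK, and NAPRT has replicate 1 below 0 and replicates 2 and 3 above it.

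The bases before the start of SIRT1 and NADK are shown because these genes moved in opposite directions and both hold CACGTG, the E-box bound by MYC and by CLOCK and BMAL1, circadian factors known to drive NAMPT. Both windows are the 250 bases before the RefSeq start on GRCh38.p14, 5′ to 3′ on the strand of the gene, with CACGTG in capitals.
SIRT1, chr10:67884406-67884655, plus strand: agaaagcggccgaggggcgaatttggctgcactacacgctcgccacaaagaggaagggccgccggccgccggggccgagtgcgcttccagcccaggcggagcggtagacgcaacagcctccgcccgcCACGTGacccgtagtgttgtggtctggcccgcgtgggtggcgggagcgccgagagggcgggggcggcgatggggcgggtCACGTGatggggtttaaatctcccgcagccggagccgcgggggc
NADK, chr1:1778817-1779066, minus strand: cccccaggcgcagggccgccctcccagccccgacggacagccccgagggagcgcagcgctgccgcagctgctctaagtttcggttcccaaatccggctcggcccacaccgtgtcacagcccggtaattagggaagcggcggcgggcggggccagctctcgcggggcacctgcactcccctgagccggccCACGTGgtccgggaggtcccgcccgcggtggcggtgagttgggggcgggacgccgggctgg

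In SIRT1 the 2 matches began 123 and 44 bases before the start, and in the NADK window the match began 61 bases before the start. NADK had 3 windows, and the others held no match. The window shown is not that of the start of NADK-201, the GENCODE transcript with 98.1% of NADK counts in control libraries. The RefSeq table held 12 such windows for all but NNMT and NAPRT of the 10 genes, and CACGTG was also found in that of AOX1, 119 bases before the start, but in no other window of the 10 genes. Over all 35116 windows in the table, 6.34% held CACGTG. On either strand, TGACTCA (the AP-1 motif, 4.20% of all windows) and the interferon response motif (3.02%) were in none of the 12 windows. TTCNNNGAA (the STAT motif, 6.57%) was in 1 of the windows of NMNAT2, the NF-kappaB motif (6.88%) in NMNAT1 and in the NADK window shown, where it does not overlap CACGTG. These matches describe the letters in the windows only.

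Levels of different genes were compared per kilobase of transcript, in CPM per kb summed over transcripts. In control cells NADK (21.6 ± 0.193) was the highest, followed by SIRT1 (20.7 ± 0.337), AOX1 (13.2 ± 0.0966), NNMT (10.8 ± 0.721), NADSYN1 (10.8 ± 0.267), NMNAT2 (4.85 ± 0.0717), NMNAT1 (2.55 ± 0.0767) and NAPRT (2.54 ± 0.218), each mean ± SD with n = 3. NNMT and NADSYN1 were within their spread of each other, as were NMNAT1 and NAPRT. In TTC3 shRNA cells NNMT was the lowest of these 8, at 0.414 ± 0.112, while NADK (31.6 ± 4.83) stayed first and AOX1 (18.1 ± 2.90) was above SIRT1 (13.2 ± 1.89). NAMPT is not placed in this order because most of its counts lay in transcripts without a known length here, and QPRT because of its few counts.

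The wider network of NAD was read from 7 lists of 70 genes, of which 63 were tested. Of these 12 passed as higher and 16 as lower (28 in all), where 15.7% and 17.8% of all tested genes did, with a median log2 fold change of -0.04 against -0.02. Of the 14901 tested protein-coding genes, 20.9% passed as higher and 21.3% as lower. Those shares are larger than the shares of all tested genes given here and beside each list. Without TTC3 shRNA replicate 1 the number that passed was 46, and without control replicates 1, 2 and 3 it was 16, 15 and 15. Over all genes the same fits gave 13739, 4546, 4632 and 4633, against 8165 in the main fit. Library totals alone gave 6 higher and 19 lower.

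Genes around the route from tryptophan to the QPRT substrate moved both ways. Of 11 listed, 8 were tested, 4 fell and 2 rose, against 17.8% lower and 15.7% higher over all tested genes. The median of the list was -0.31. IDO1, the interferon-induced dioxygenase that opens the pathway, was at 1.22, 1.49 and 1.15 CPM in control libraries and 0.0664, 0.146 and 0.146 CPM in TTC3 shRNA libraries (log2 fold change -3.43 ± 0.31, SE, edgeR adjusted p = 0.000391). KMO, the kynurenine hydroxylase, fell from 6.99 ± 0.719 to 1.2 ± 0.304 CPM, and KYNU, the kynureninase, from 1.18 ± 0.190 to 0.428 ± 0.112 CPM. AFMID, the formamidase between IDO1 and KMO, rose from 24.1 ± 0.799 to 40.3 ± 7.8 CPM. The others past the threshold, named after their values were seen, were the side-branch aminotransferase KYAT1, lower at 7.85 ± 0.5 and 5.73 ± 0.300 CPM, and ACMSD, which diverts the pathway before quinolinate, higher at 0.119 ± 0.0441 and 0.288 ± 0.0312 CPM. HAAO, which makes the quinolinate that QPRT uses, and the liver dioxygenase TDO2 had no counts in any library.

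Among enzymes that consume NAD, some members of the PARP family fell but most did not pass, and none of the other sirtuins passed. In the PARP family 15 of 16 genes were tested, 6 fell, 1 rose and 8 did not pass, with a median of -0.23. Of all tested genes 17.8% passed as lower and 15.7% as higher. PARP9 fell from 127 ± 3.8 to 34.0 ± 6.21 CPM, PARP14 from 247 ± 4.97 to 94.0 ± 13.4 CPM and PARP12 from 19.9 ± 0.878 to 9.18 ± 0.851 CPM, and all of these are known as interferon-inducible mono-ADP-ribosyltransferase family members. TIPARP, a target of the aryl hydrocarbon receptor, fell from 230 ± 3.66 to 60.0 ± 13.1 CPM. PARP10 and PARP16 fell to 47.9% and 78.5% of control. PARP9, PARP14, PARP12 and TIPARP had edgeR adjusted p of at most 0.000275. The 1 that rose was PARP1, the main DNA damage polymerase, named after its values were seen, at 316 ± 0.349 and 389 ± 19.7 CPM.

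None of the 6 other sirtuins passed the edgeR test, where 33.6% of all tested genes did. SIRT2 was at 32.1 ± 1.70 and 33.7 ± 1.33 CPM and SIRT5 at 18.1 ± 0.106 and 18.6 ± 1.19 CPM, and with library totals alone both were marginally lower. SIRT6 and SIRT7, named after their values were seen, were at 147% and 112% of control, with groups that overlapped. Against the control mean, TTC3 shRNA replicates 1, 2 and 3 were at -0.24, 0.73 and 0.92 log2 units for SIRT6. For SIRT7 they were at -0.50, 0.26 and 0.55. Neither gene was followed through the alternatives. The difference between SIRT1 and the other sirtuins was not tested. The 3 NAD glycohydrolases had a median of -0.86, the value of BST1, and 2 of them fell, where 17.8% of all tested genes did. BST1, named after its values were seen, did not pass. It held 27, 34 and 30 counts in control and 20, 8 and 18 in TTC3 shRNA libraries. SARM1, an NAD glycohydrolase of axon degeneration, fell from 17.2 ± 0.305 to 11 ± 0.949 CPM. CD38, the surface NAD glycohydrolase, held 43, 44 and 18 counts in control and 9, 0 and 0 in TTC3 shRNA libraries, and its edgeR adjusted p of 0.0462 was above the threshold without any 1 library except TTC3 shRNA replicate 1.

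**Figure D4:**
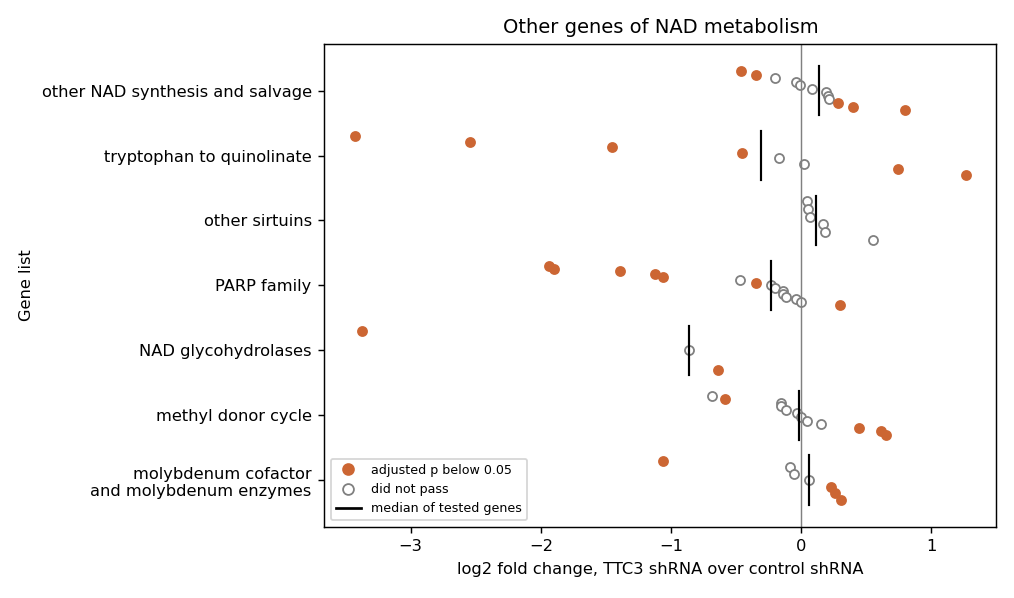
Log2 fold change (TTC3 shRNA over control shRNA) of the tested genes of 7 lists around NAD, filled where the edgeR adjusted p was below 0.05, with a line at each list's median. The points furthest to the left are IDO1 and CD38, and no filled point lies among the other sirtuins.

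The cycle that supplies and clears the methyl donor of NNMT had 12 of 14 genes tested, 3 higher and 1 lower. Over all tested genes 15.7% were higher and 17.8% lower. The median of the list was -0.02. MAT2A, which makes S-adenosylmethionine, fell from 440 ± 2.50 to 293 ± 21.0 CPM (log2 fold change -0.59 ± 0.07, SE, edgeR adjusted p = 0.00124). AHCY, which hydrolyses the S-adenosylhomocysteine left by methyltransferases such as NNMT, rose from 190 ± 2.19 to 297 ± 31.1 CPM (0.65 ± 0.09, edgeR adjusted p = 0.00189). ADK, the adenosine kinase that clears the adenosine released by AHCY, rose from 190 ± 2.92 to 260 ± 11.8 CPM. GAMT, a methyltransferase of creatine synthesis, rose from 26.7 ± 1.06 to 40.9 ± 8.32 CPM, and did not pass without any 1 control replicate or TTC3 shRNA replicate 2.

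The list of molybdenum cofactor genes, on which AOX1 activity depends, and of other molybdenum enzymes had 3 of 7 higher and 1 lower. Over all tested genes 15.7% were higher and 17.8% lower. The median of the list was 0.06. Of its 5 cofactor genes 2 rose and none passed as lower. The sulfite oxidase SUOX, another molybdenum enzyme, rose from 21.9 ± 0.386 to 27.2 ± 1.04 CPM, and the cofactor synthesis genes MOCS1 and MOCS2 rose by 0.26 ± 0.08 and 0.23 ± 0.07 on the log2 scale (SE). XDH, the xanthine oxidase related to AOX1, fell from 0.997 ± 0.168 to 0.477 ± 0.0771 CPM. SUOX, MOCS1 and MOCS2 did not pass with library totals alone or without any 1 control replicate, and MOCS1 and MOCS2 also not without TTC3 shRNA replicate 3, nor MOCS1 without replicate 2. With the length trend removed MOCS2 was at 0.03 on the log2 scale and did not pass, and neither cofactor gene passed with no filter on low counts.

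Other synthesis and salvage genes had 12 of 13 tested, 3 higher and 2 lower, with a median of 0.14. Over all tested genes 15.7% were higher and 17.8% lower. NAXE, an epimerase that repairs damaged NADH and NADPH, rose from 52.0 ± 2.95 to 90.7 ± 17.3 CPM (log2 fold change 0.80 ± 0.14, SE, edgeR adjusted p = 0.00556). The purine nucleoside phosphorylase PNP rose from 68.4 ± 0.341 to 83.0 ± 6.24 CPM. NMRK1, the nicotinamide riboside kinase, fell from 2.94 ± 0.259 to 2.13 ± 0.120 CPM and the nucleotidase NT5C2 from 92.1 ± 2.24 to 72.5 ± 9.60 CPM. PNP, NMRK1 and NT5C2 did not pass without any 1 control replicate or without TTC3 shRNA replicate 2, and NMRK1 and NT5C2 also not without replicate 3. PNP was at 0.12 on the log2 scale with the length trend removed and at 0.15 with library totals alone, and did not pass in either. NMRK1 and NT5C2 did not pass with no filter on low counts.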

How the data were processed

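Total RNA depleted of ribosomal RNA was sequenced from 3 control shRNA and 3 TTC3 shRNA libraries of PC3 cells. The authors deposited estimated counts per gene and per transcript, made with Trim Galore, STAR and StringTie on hg38, per the submitters' processing notes. Versions, settings and strand use were not given in the sources used here. All values were whole numbers and were used as deposited. Positions and lengths come from GENCODE release 29 by identifier.

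Genes were filtered with filterByExpr (10 counts, 15 in total), scaled by TMM and tested with edgeR 4.0.16 in R 4.3.3 (quasi-likelihood test, Benjamini-Hochberg adjustment over all tested genes), after the code was tested on simulated data. The SE is the absolute log2 fold change over the square root of F. Alternatives used limma 3.58.1 and DESeq2 1.42.0, other scalings and filters, a stricter threshold, a replicate block, removal of the length trend, and each library left out. Levels per length need 80% of a gene's count in transcripts of known length.

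The members and lists were chosen with earlier results of these data known. Chromosome medians, gene copies and promoter motifs were added after seeing the data. Named genes are TTC3, the 10 members, up to 4 per wider list by adjusted p (2 by mean CPM where none passed), the 5 genes of at least 1 CPM nearest to NNMT in log2 CPM profile (prior count 2), its neighbours within 500 kb and the marker genes.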

Additional observations from a re-analysis of the deposited data

How the results depend on the processing

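NNMT, NMNAT2, NADK and SIRT1 kept their direction and passed in all 16 alternatives, and NAMPT in the 15 that could include it. AOX1 passed in 11 of 16, NMNAT1 in 2, and NAPRT and NADSYN1 in 1 each. The alternatives re-fit the same libraries, and the set was chosen from this comparison. These counts therefore describe only how the calls depend on the settings. With library totals alone the median log2 fold change of all tested genes went from -0.02 to -0.15, 2518 genes passed as higher and 5356 as lower (3827 and 4338 with TMM), 1 of the 10 genes as higher and 5 as lower, and 6 of the wider lists as higher and 19 as lower. At an adjusted p of 0.01, 4082 genes passed (1688 higher, 2394 lower), 1 of the 10 genes as higher, and 15 of the wider lists (4 higher).

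Leaving out 1 library at a time gave 4546 to 13739 genes (1835 to 6674 higher, 2711 to 7065 lower), 5 to 8 of the 10 genes (1 to 4 higher) and 15 to 46 of the wider lists (4 to 20 higher, 11 to 26 lower). Any control library left out gave 4546, 4632 or 4633 genes, while TTC3 shRNA replicate 1 left out gave 13739 and replicate 2 left out 5372. An arm of 2 libraries shares its spread with the other arm.

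Directions turned only among genes that did not pass in the main fit. With library totals alone these were NAPRT (-0.011), SIRT2 (-0.061), SIRT5 (-0.085) and C11orf71 (-0.011). With the length trend removed they were SIRT2 (-0.020) and USP28 (0.065). Without control replicate 1 it was USP28 (0.023), and without TTC3 shRNA replicate 1 C11orf71 (-0.088). Without TTC3 shRNA replicate 2 they were ZW10 (0.041) and USP28 (0.037), and without replicate 3 ZW10 (0.088) and USP28 (0.098). Of these genes NAPRT, ZW10 and USP28 passed without TTC3 shRNA replicate 1 only. Leaving out 1 library at a time, ZW10 ranged from -0.20 to 0.088, USP28 from -0.16 to 0.098 and C11orf71 from -0.088 to 0.25. The cause was not tested.

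Same-numbered libraries did not deviate together (correlations 0.05, 0.04 and -0.01, control replicate 3 not correlating best with its own number), so the numbers were not taken as pairs. With a replicate block 6929 genes passed (3210 higher, 3719 lower), 6 of the 10 genes and 21 of the wider lists. NMRK1, NT5C2, MOCS1 and MOCS2 did not pass with the block, and RBM7 did. MOCS2 also did not pass with limma-voom or with at least 50 counts in 3 libraries. QPRT had at most 4 counts in a library.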

Other observations

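NADSYN1 was counted in a pair of transcripts whose shares differed between the groups, values that no comparison above uses and that were not tested. The less abundant transcript held 13.8%, 9% and 10.8% of NADSYN1 counts in control libraries, against 7.62%, 4.04% and 5.26% with TTC3 shRNA, and the groups did not overlap. The main transcript, NADSYN1-201, held the rest. Shares of estimated transcript counts depend on how the authors' tool divided reads between overlapping transcripts.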
